A study of Homo sapiens with 12 samples.

Results

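Interferon-linked poly(ADP-ribose) polymerase genes, their partner DTX3L and the guanylate-binding protein (GBP) genes were followed across the 4 lines of a TIMP1 knockout experiment. The members were PARP9, PARP10, PARP12, PARP14, DTX3L and GBP1 to GBP5, taken by gene symbol from the table of normalised counts, and all 10 were present among its 63086 genes. RNA-seq had been performed on MIA PaCa-2, an established human pancreatic carcinoma line, in 12 libraries with 3 per line. TIMP1 encodes a secreted inhibitor of metalloproteinases, and the design asked which transcripts depend on it. WT was the unmanipulated line. CRISPR Control had passed through the editing procedure and carried only a silent point mutation, so that its genotype is also WT. TIMP1 KO 1 and TIMP1 KO 2 were knockout clones in which different regions of exon 4 had been targeted. WT and CRISPR Control are called competent and both KO lines deficient.

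Each edited line is a single line or clone, so clonal differences and the loss of TIMP1 cannot be told apart within 1 line. All lines were grown untreated in RPMI medium with serum to 70% confluency, and the labels give no interferon or other treatment. The labels call the replicates biological but do not say that they came from separate cultures, so p-values measure the spread between these libraries. In bulk RNA, fewer cells that express a gene and less RNA per cell cannot be told apart.

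Libraries held 26908701 to 36093563 reads in genes, and 3 reads, the limit that a count of 0 allows, corresponded to 2.49 to 3.56 normalised counts. This floor covers counting error only. TIMP1 itself averaged 3553 ± 274 normalised counts for WT and 2690 ± 357 for CRISPR Control, against 1600 ± 32.8 for KO 1 and 1161 ± 28.8 for KO 2 (SD, n = 3). KRT8, KRT18 and VIM, which were expected in this line, exceeded 14596 normalised counts in every library. CDKN2A, which this line is known to lack, was at 0 in all of them. Of 8 leukocyte and blood markers, CD14 rose from 31.8 to 42.9 in WT libraries to 152 to 173 in KO 2 libraries, while none of the other 7 exceeded 7.46 in any library and MS4A1 and HBB were at 0 throughout. Summed over the list they spanned 38.2 to 55.2 (WT), 38.5 to 40.6 (CRISPR Control), 76.9 to 92.9 (KO 1) and 160 to 175 (KO 2), and its part in the results was not tested.

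PARP enzymes transfer ADP-ribose from NAD+ to proteins. PARP10, PARP12 and PARP14 attach single ADP-ribose units, whereas PARP9 has macrodomains that bind ADP-ribose and acts in a complex with DTX3L, a ubiquitin ligase of the Deltex family. GBPs are large GTPases that assemble on the membranes of intracellular microbes, and GBP1, GBP2 and GBP5 carry a C-terminal site for a lipid anchor. Both groups are known as interferon-stimulated genes: type I and type III interferons act on interferon-stimulated response elements, through factors that include STAT2 and IRF9, and interferon gamma acts on GAS elements.

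The genes lie mainly in 2 clusters on GRCh38. PARP9 (chr3:122527924-122564577, minus strand), DTX3L (chr3:122564338-122575203, plus strand) and PARP14 (chr3:122680839-122730840, plus strand) form a block of 202.9 kb. PARP9 and DTX3L point away from each other, and they overlap by 240 bases, exons included, on opposite strands. GBP3 (chr1:89006679-89022894), GBP1 (chr1:89051882-89065360), GBP2 (chr1:89106132-89150456), GBP4 (chr1:89181144-89198942) and GBP5 (chr1:89256189-89272860) all lie on the minus strand in a block of 266.2 kb. PARP12 lies alone at chr7:140023749-140062951 on the minus strand.

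Promoter windows from RefSeq (GRCh38.p14, 250 bases before to 50 after a start) were given for 7 of the genes, named with their stretches here, and searched on both strands for GAAA followed by any 2 bases and GAAA again, the core of an interferon-stimulated response element. The letters were found in 7 of the 7 genes, in 7 of 8 windows, against 3.57% of all 35116 windows. The stretches below are shown because they give the match in each window. They run 5′ to 3′ on the strand of the gene, and capitals mark the match.
PARP9: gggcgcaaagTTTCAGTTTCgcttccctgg
DTX3L: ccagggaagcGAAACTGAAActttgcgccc
PARP14: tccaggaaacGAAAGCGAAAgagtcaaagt
PARP12: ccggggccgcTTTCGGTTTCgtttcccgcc
GBP1: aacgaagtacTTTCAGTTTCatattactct
GBP3: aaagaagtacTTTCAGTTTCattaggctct
GBP4: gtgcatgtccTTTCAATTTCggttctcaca

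The PARP9 and DTX3L stretches are the same site, chr3:122564332-122564341, read from opposite strands, in windows that share 137 bases. A further PARP9 window, at chr3:122564735-122565034, held no match. The GBP1 and GBP3 stretches were identical at 25 of 30 bases. The GBP1 match begins 127 bases before the RefSeq start but at base 26 of the gene in the annotation used for coordinates, whose start lies further out, and the GBP3 and PARP9 matches begin at bases 31 and 237 of their genes there. TTCNNNGAA, a GAS-type element, was found in the windows of PARP14 and GBP3 only, against 7.66% of all windows. Both matches are shown with capitals marking them.
PARP14: cctgggagttTTCCAGGAAacgaaagcga
GBP3: actgagtcacTTCCTTGAAagaagtactt
These are matches of letters, and binding was not measured.

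**Figure D1:**
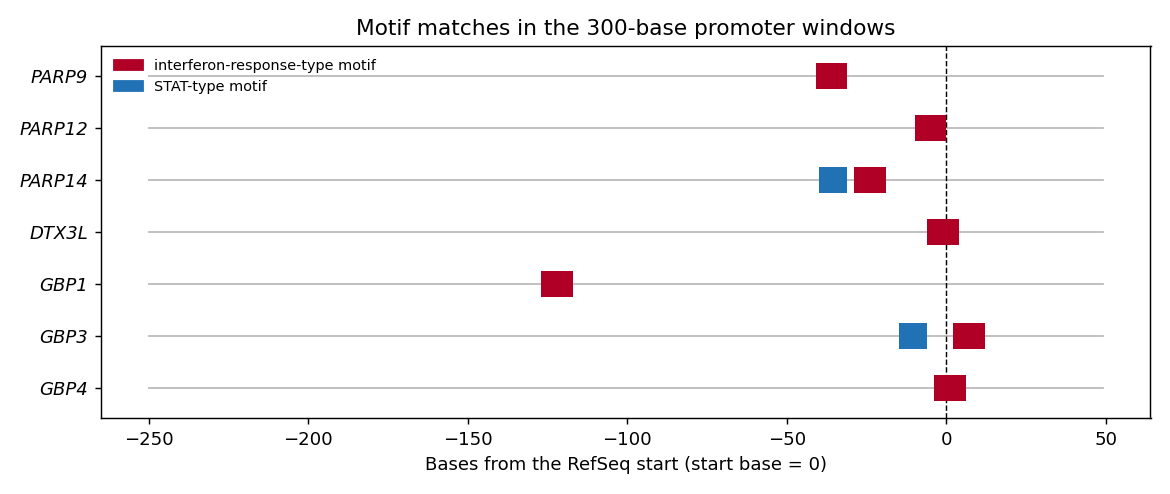
Positions of both motifs in the promoter windows of the 7 genes, in bases from the RefSeq start (start base at 0, dashed line). Grey lines are the windows, and 6 of the 7 interferon-response-type matches begin between 41 bases before and 2 bases after the start, whereas that of GBP1 begins 127 bases before it.

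The first comparison asked how KO 1 differed from WT. Of the 10 genes, 8 were called higher and 0 lower, and the others, GBP1 and GBP5, were at the floor in both lines (limma on log2(normalised count + 1), Benjamini-Hochberg adjusted p under 0.05). Among all 15987 genes tested, 18.0% were called higher and 17.5% lower. The rises were largest for PARP9 and PARP14 among the ADP-ribosylation genes and for GBP2 among the GBPs. The median over the 8 genes above the floor was 1.57 on the log2 scale, against 0.00322 over all genes tested. These 8 include GBP2 and GBP4, which passed the filter on low values only through their level in KO 2.

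KO 2 was higher than WT for all 10 genes and lower for 0, where 27.1% of genes tested were called higher and 27.9% lower. With libraries scaled to equal totals, the genes called in KO 2 against WT split into 5235 higher and 3500 lower, instead of 4330 and 4461, and the 10 calls held. All 3 KO 2 libraries lay above all 3 WT libraries for each of the 10 genes. Both comparisons share the WT libraries. GBP1, GBP2, GBP4 and GBP5 had a mean of at least 10 only because of KO 2, so the count of 10 describes the members and is not a test of them.

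PARP9 measured 244, 242 and 272 normalised counts in WT and 253, 184 and 204 in CRISPR Control. KO 1 libraries reached 1003, 1378 and 1027, and KO 2 libraries 4785, 4710 and 4183. No KO library overlapped a competent library, and KO 1 and KO 2 did not overlap either. Relative to WT, KO 1 differed by 2.15 on the log2 scale (SE 0.13, adjusted p = 1.49e-10, limma) and KO 2 by 4.17 (SE 0.13, adjusted p = 6.68e-15).

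DTX3L, the ligase partner of PARP9, gave 617, 689 and 712 normalised counts in WT and 660, 529 and 540 in CRISPR Control. KO 1 libraries gave 1650, 2101 and 1661, and KO 2 libraries 5223, 4818 and 4505. The lines separated in the same way as for PARP9, with smaller steps. On the log2 scale KO 1 exceeded WT by 1.42 (SE 0.11, adjusted p = 4.93e-09, limma), and KO 2 exceeded it by 2.85 (SE 0.11, adjusted p = 1.21e-13).

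The ratio between the partners differed between the lines. The ratio of PARP9 to DTX3L normalised counts within a library was 0.377 ± 0.0233 in WT and 0.370 ± 0.0196 in CRISPR Control (SD, n = 3). KO 1 had a ratio of 0.627 ± 0.0254 and KO 2 of 0.941 ± 0.0325. The ranges of WT and CRISPR Control overlapped, and those of KO 1 and KO 2 lay apart from them and from each other. The ratio is not corrected for length. The ratio of PARP14 to DTX3L moved less: it was 1.06 ± 0.0541 for WT, 1.15 ± 0.0895 for CRISPR Control, 1.36 ± 0.0800 for KO 1 and 1.53 ± 0.0549 for KO 2. The competent lines overlapped in it, and no KO library fell within their range. The strand setting of the counting was not given, so reads in the 240 bases that PARP9 and DTX3L share cannot be told apart.

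PARP14, a mono-ADP-ribosyltransferase with macrodomains, had the highest normalised counts of the group in KO 2. It measured 689, 695 and 755 (WT), 822, 566 and 611 (CRISPR Control), 2351, 2677 and 2318 (KO 1) and 7725, 7647 and 6833 (KO 2). Competent libraries overlapped each other and no KO library. Relative to WT, KO 1 differed by 1.78 on the log2 scale (SE 0.11, adjusted p = 3.23e-10, limma) and KO 2 by 3.37 (SE 0.11, adjusted p = 1.89e-14).

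PARP12, a zinc-finger mono-ADP-ribosyltransferase, had the smallest difference between KO 2 and WT. It measured 902, 894 and 777 (WT), 639, 612 and 695 (CRISPR Control), 1281, 1336 and 1370 (KO 1) and 2345, 2485 and 2562 (KO 2). Here all 4 lines lay apart, with CRISPR Control lowest. On the log2 scale KO 1 exceeded WT by 0.63 (SE 0.08, adjusted p = 6.58e-06, limma), and KO 2 exceeded it by 1.52 (SE 0.08, adjusted p = 1.97e-11).

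PARP10, the remaining mono-ADP-ribosyltransferase, separated KO 2 from the other lines more than KO 1 from them. It measured 169, 186 and 192 (WT), 229, 266 and 254 (CRISPR Control), 288, 325 and 240 (KO 1) and 967, 1126 and 1232 (KO 2). KO 1 overlapped CRISPR Control but not WT. Relative to WT, KO 1 differed by 0.63 on the log2 scale (SE 0.12, adjusted p = 0.000615, limma) and KO 2 by 2.59 (SE 0.12, adjusted p = 4.08e-12). GRINA overlaps PARP10 by 3360 bases, exons included, on the opposite strand, and without a strand setting reads there cannot be told apart. GRINA averaged 5597 ± 222 (WT), 9119 ± 1352 (CRISPR Control), 5288 ± 445 (KO 1) and 5756 ± 472 (KO 2) normalised counts, so it was high in CRISPR Control and not in the KO lines. Its part in the PARP10 values was not tested.

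Among the GBPs, GBP3 was the most abundant member in every line. It measured 5.66, 16.4 and 19.1 (WT), 20.7, 22.5 and 18.7 (CRISPR Control), 37.8, 27.0 and 45.1 (KO 1) and 348, 253 and 274 (KO 2). KO 1 lay above both competent lines and KO 2 above KO 1. On the log2 scale KO 1 exceeded WT by 1.48 (SE 0.33, adjusted p = 0.00157, limma), and KO 2 exceeded it by 4.45 (SE 0.33, adjusted p = 1.50e-09). Without WT replicate 1, the library with the lowest value, the KO 1 difference was 0.98 with an adjusted p of 0.00697, and that of CRISPR Control was 0.21.

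GBP2 was near the floor in the competent lines, with 4.53, 5.45 and 1.91 in WT and 4.32, 3.56 and 5.49 in CRISPR Control. KO 1 libraries held 14.04, 19.1 and 24.7, and KO 2 libraries 171, 175 and 148. The KO lines did not overlap the competent lines or each other. Log2 differences from WT were 2.08 for KO 1 (SE 0.35, adjusted p = 0.00013, limma) and 5.14 for KO 2 (SE 0.35, adjusted p = 5.48e-10), and the added 1 makes such values understate the change of genes this low. The filter on low values was passed by GBP2 only through KO 2, so these differences are a description.

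GBP4 gave 10.2, 4.55 and 0.953 (WT), 2.59, 8.30 and 5.49 (CRISPR Control), 16.2, 12.4 and 15.9 (KO 1) and 154, 146 and 116 (KO 2). KO 1 lay above both competent lines by a small margin. Relative to WT, KO 1 differed by 1.67 on the log2 scale (SE 0.49, adjusted p = 0.0124, limma) and KO 2 by 4.81 (SE 0.49, adjusted p = 1.39e-07). Like GBP2, GBP4 was tested only through its level in KO 2, so these differences are a description. Without WT replicate 3, the library with the lowest value, the KO 1 difference was 1.00 with an adjusted p of 0.0823.

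GBP1 and GBP5 were at or under the floor in WT, CRISPR Control and KO 1. GBP1 measured 1.13, 0.909 and 0 (WT), 0, 3.56 and 3.30 (CRISPR Control), 0, 1.13 and 0.883 (KO 1) and 77.0, 76.3 and 57.5 (KO 2). A difference between WT, CRISPR Control and KO 1 was not detectable at this depth. The ratio of GBP1 in KO 2 to WT, from 180 reads in KO 2 replicates 1 and 2 against 2 reads in WT and scaled for library size, was 116 (exact 95% counting interval 31.7 to 968). The limma adjusted p was 8.87e-07. Because GBP1 was tested only through its level in KO 2, this p-value is a description.

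GBP5 measured 0, 1.82 and 0.953 (WT), 0, 0 and 1.10 (CRISPR Control), 2.16, 1.13 and 1.77 (KO 1) and 39.8, 64.9 and 36.3 (KO 2). Only the KO 2 libraries exceeded the floor. The ratio to WT, from 122 reads against 3 reads, was 52.5 (exact 95% counting interval 17.6 to 258), with a limma adjusted p of 2.83e-06. This p-value too is a description, since GBP5 was tested only through KO 2. How read pairs that match several GBPs were counted was not given. Of the 50-base windows of GBP1 transcripts 7.76% also occur in another family member, as do 8.82% of GBP2, 4.41% of GBP3 and 0.308% of GBP4. The other member is mostly GBP1P1 for GBP1 and GBP7 for GBP2, and no window of GBP5 is shared. The reads were longer than these windows, so the shares are not shares of read pairs.

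**Figure D2:**
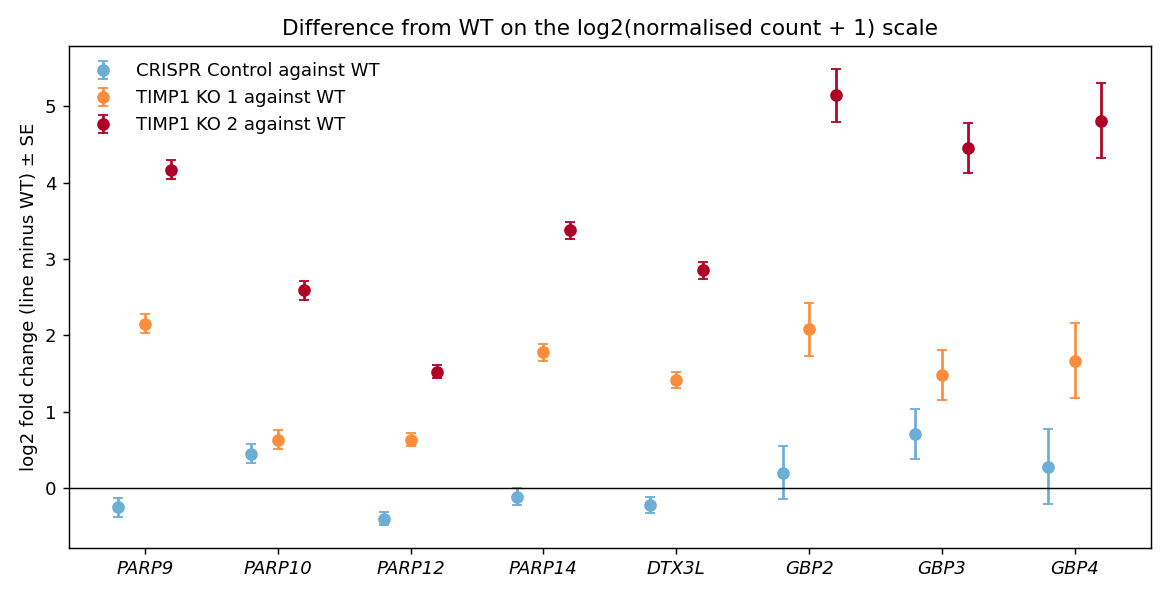
Log2 fold change against WT (points) with SE (lines) of CRISPR Control, KO 1 and KO 2 for the 8 genes above the floor. KO 2 is highest for each gene, from 1.52 for PARP12 to 5.14 for GBP2, and CRISPR Control ranges from -0.40 for PARP12 to 0.71 for GBP3.

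A further comparison asked how CRISPR Control differed from WT. It is 1 line, so the editing procedure and differences particular to that line cannot be told apart. In CRISPR Control against WT, 1 gene was called higher, where 27.2% of the genes tested were, and 1 lower, where 26.3% were. PARP10 was higher by 0.45 (SE 0.12, adjusted p = 0.00539, limma), and PARP12 fell by 0.40 on the log2 scale (SE 0.08, adjusted p = 0.00045). Over the remaining genes above the floor the differences were -0.25 for PARP9, -0.23 for DTX3L, -0.12 for PARP14, 0.20 for GBP2, 0.71 for GBP3 and 0.28 for GBP4, with adjusted p from 0.0763 to 0.658. Replicate 1 of CRISPR Control was highest of its line for PARP9, PARP14 and DTX3L, and without it 2 genes were called higher and 4 lower. PARP9, DTX3L and PARP14 then fell by 0.38, 0.33 and 0.28 on the log2 scale.

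Against CRISPR Control, KO 1 was higher for 7 genes and lower for 0, where 31.7% of genes tested were called higher and 31.3% lower. The log2 differences were 2.40 for PARP9, 1.89 for PARP14, 1.64 for DTX3L, 1.04 for PARP12, 1.88 for GBP2, 1.39 for GBP4 and 0.77 for GBP3. PARP10 differed by 0.18 (SE 0.12, adjusted p = 0.215, limma). The GBP3 call, at an adjusted p of 0.0467, was lost under 13 of 25 alternatives, over which its adjusted p ran from 0.00659 to 0.164. KO 2 was higher than CRISPR Control for all 10 genes and lower for 0, where 33.3% were called higher and 34.4% lower, with log2 differences from 1.92 for PARP12 to 4.94 for GBP2 above the floor. GBP1, GBP2, GBP4 and GBP5 were tested only through KO 2, so the count of 10 describes the members. With equal library totals the genes called split into 6217 higher and 4538 lower, instead of 5328 and 5500. GBP1 and GBP5 exceeded CRISPR Control by read ratios of 37.2 (exact 95% counting interval 16.8 to 103) and 151 (26.6 to 6023).

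The KO lines differed from each other as well. All 10 genes were higher in KO 2 than in KO 1 and 0 lower, where 18.1% of genes tested were called higher and 20.1% lower. With equal library totals the genes called in this comparison split into 3890 higher and 2046 lower, instead of 2890 and 3210, and the 10 calls held. GBP1, GBP2, GBP4 and GBP5 were tested only through KO 2, so the count of 10 describes the members and is not a test of them. Above the floor the difference was largest for the GBPs, with 3.14 for GBP4, 3.06 for GBP2 and 2.98 for GBP3. It was 2.02 for PARP9, 1.96 for PARP10, 1.60 for PARP14, 1.43 for DTX3L and 0.89 for PARP12. GBP1 and GBP5 exceeded KO 1 by read ratios of 113 (exact 95% counting interval 30.8 to 940) and 30.6 (12.8 to 96.0). A stepwise order, higher than WT in both KO lines and higher in KO 2 than in KO 1, held for 8 genes, where 4.98% of genes tested met it. GBP2 and GBP4 are among the 8, so this count too is a description.

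With both deficient lines averaged against both competent lines, 10 genes were called higher and 0 lower, where 32.9% were called higher and 33.0% lower. With equal library totals the genes called split into 5807 higher and 4637 lower, instead of 5255 and 5280. GBP1, GBP2, GBP4 and GBP5 were tested only through KO 2, so the count of 10 is a description. The log2 differences above the floor were 3.51 for GBP2, 3.28 for PARP9, 3.10 for GBP4, 2.63 for PARP14, 2.61 for GBP3, 2.25 for DTX3L, 1.39 for PARP10 and 1.28 for PARP12. All 6 deficient libraries lay above all 6 competent libraries for 7 genes, where 12.3% of genes tested did so, with PARP10, GBP1 and GBP5 as the exceptions. For GBP1 and GBP5 the averaged call rests on KO 2. Requiring a higher call against WT in both KO lines and no call in CRISPR Control kept 6 genes, PARP9, PARP14, DTX3L, GBP2, GBP3 and GBP4, where 5.0% of genes tested were kept. The counts of 7 and 6 hold GBP2 and GBP4, which were tested only through KO 2, and describe the members. Without CRISPR Control replicate 1 the rule kept 3 genes, GBP2, GBP3 and GBP4, without WT replicate 3 it kept 4, losing GBP3 and GBP4, and without WT replicate 2 it kept 5, losing GBP3.

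Levels of different genes were compared per kilobase of joined exons. For WT the order was PARP12 (156 normalised counts per kb), DTX3L (117), PARP14 (69.4), PARP10 (30.2), PARP9 (28.3) and GBP3 (3.20), with the other GBPs under 1. Neighbours in this order that overlapped in their library values were PARP10 and PARP9, GBP3 and GBP4, GBP4 and GBP2, and GBP1 and GBP5. CRISPR Control kept this order for the first 6 genes, with PARP12 (118) and DTX3L (99.9) overlapping. For KO 1, DTX3L (313) came first, PARP12 (241) and PARP14 (238) overlapped, and PARP9 (127) had passed PARP10 (47.2). In KO 2 the order was DTX3L (841), PARP14 (720), PARP9 (510), PARP12 (447), PARP10 (184), GBP3 (68.1), GBP2 (22.9), GBP4 (22.6), GBP1 (11.5) and GBP5 (4.29). PARP12 thus went from the highest level per kb in WT to the fourth in KO 2, and only GBP2 and GBP4 overlapped among neighbours in KO 2. With the longest coding transcript as length, PARP14 preceded DTX3L, PARP12 preceded PARP9 and GBP1 preceded GBP4 in KO 2, and in KO 1 DTX3L came after PARP12 and PARP14.

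Genes next to the clusters were compared to see how far the rise extended. Within 500 kb of the PARP9-DTX3L-PARP14 block, 8 other genes were tested, and KO 2 against WT gave 3 higher and 1 lower, where 27.1% of all genes tested were higher and 27.9% lower, with log2 differences from -0.33 to 1.10. The nearest, KPNA1, HSPBAP1 and SLC49A4, differed by 0.08, 0.18 and -0.14. PARP15, inside the block, did not exceed a mean of 2.20 in any line. Around the GBP block, 8 genes were tested and 5 were higher and 0 lower, from -0.21 to 0.72. PTGES3P1, a pseudogene inside this block, differed by -0.21 (adjusted p = 0.424, limma). The nearest outside it, RBMXL1, KYAT3 and GTF2B, differed by 0.28, 0.65 and 0.51, while the members of either block above the floor differed by 2.85 or more.

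Other members of the PARP family include the DNA-damage enzymes and the tankyrases. Of 12 tested of 13 listed, 6 were higher and 5 lower in the deficient lines, where 32.9% and 33.0% of all genes were, with a median of 0.17 against 0.00229 over all genes. Against WT, KO 2 had 8 higher and 3 lower (median 0.40), where 27.1% and 27.9% of all genes were. KO 1 had 4 higher and 5 lower (median 0.05), where 18.0% and 17.5% of all genes were. TIPARP, a mono-ADP-ribosyltransferase, was higher by 1.24 and PARP4 by 0.71, while PARP11 fell by 0.84 and PARP16 fell by 0.73 on the log2 scale. The PARP4 average includes a fall in CRISPR Control against WT (-0.44), with 0.37 in KO 1 and 0.62 in KO 2 against WT. That of PARP16 includes a rise in CRISPR Control (0.57), with -0.38 in KO 1 and -0.52 in KO 2. PARP11 measured 83.9 (WT), 136 (CRISPR Control), 25.2 (KO 1) and 137 (KO 2), so it was lower than WT only in KO 1. Among 6 genes that remove ADP-ribose, 2 were higher and 2 lower (median -0.10), with differences of 2.69 for MACROD2, which was tested only through KO 2, 0.63 for ADPRH, -0.38 for MACROD1 and -0.36 for PARG. MACROD1 and PARG were lower than WT in KO 2 (-0.35 and -0.45) and were not called in KO 1 (-0.20 and -0.18). ADPRH measured 783 (WT), 438 (CRISPR Control), 1019 (KO 1) and 802 (KO 2). It was lower than WT in CRISPR Control (-0.84), and KO 2 was not called against WT (0.03, adjusted p = 0.772, limma). Of 4 other Deltex ligases, DTX3 alone was called, higher by 0.43, and 0 were lower (median -0.21). DTX3 was lower than WT in CRISPR Control (-0.28), and higher by 0.23 in KO 1 and 0.34 in KO 2. DTX1 and DTX4 were higher than WT in CRISPR Control (1.56 and 0.94) and not called against WT in either KO line. Both were lower in KO 1 than in CRISPR Control (-1.83 and -1.65).

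Partners of the GBPs were examined likewise in deficient against competent lines, where 32.9% of all genes tested were called higher and 33.0% lower. Of 5 other interferon-induced large GTPases listed, 2 were tested and both were higher (median 3.14), MX1 by 5.45 and MX2 by 0.82, and GBP6 and GBP7 did not exceed a mean of 1.97 in any line. In CRISPR Control against WT, MX1 was called higher and MX2 lower, and between KO 2 and KO 1 only MX1 was called. The averaged MX2 difference thus includes a fall in CRISPR Control. Of 5 enzymes of lipid anchoring, 0 were higher and 2 lower (median -0.01), ICMT at -0.45 and RCE1 at -0.40, both of which process prenylated C-termini. Of 7 inflammasome genes listed, 4 were tested and all 4 were higher (median 1.12). CASP1 was higher by 3.08, CASP4, the receptor for cytosolic lipopolysaccharide, by 1.39, GSDMD, the pore-forming protein, by 0.85 and PYCARD, an adaptor, by 0.33. In CRISPR Control against WT, CASP1, CASP4 and PYCARD were also higher and GSDMD was lower (-1.11), and in KO 1 against CRISPR Control only GSDMD was called higher.

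Of 15 interferon signalling genes, 12 were higher in the deficient lines and 1, JAK1, was lower (median 0.62), where 32.9% and 33.0% of all genes were. CRISPR Control had 6 of them higher and 9 lower than WT (median -0.24), where 27.2% and 26.3% of all genes were, with IFNGR2 at -1.28 and TYK2 at -0.68. Against WT, KO 1 had 7 higher and 0 lower (median 0.18), where 18.0% and 17.5% of all genes were. KO 2 had 9 higher and 1 lower (median 0.65), where 27.1% and 27.9% of all genes were. USP18, a feedback inhibitor, was higher by 2.22 in the deficient lines and by 1.07 in CRISPR Control against WT, IRF9 by 2.10, STAT2 by 1.31 and IRF2 by 0.78. Of 8 interferon ligands, IFNL1, IFNL2 and IFNL3 passed the filter on low values, and all 3 did so only through KO 2, so their levels are a description. IFNL1 averaged 0.755 (WT), 3.03 (CRISPR Control), 9.42 (KO 1) and 138 (KO 2) normalised counts. For IFNL2 the means were 0.909 (WT), 3.45 (CRISPR Control), 1.76 (KO 1) and 88.02 (KO 2). IFNL3 was at 0 in WT. IFNB1 was at 0 in WT and averaged 12.005 in KO 2, and IFNG was at 0 in every library.

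Targets of both interferon types were set beside the members, in the comparison where 32.9% of all genes tested were called higher and 33.0% lower. Of 8 type I targets, 7 were tested and 7 were higher in the deficient lines (median 4.14), with differences of 5.41 for IFI6 and 5.09 for OAS1. RSAD2 measured 2.82 in WT and 740 in KO 2, and IFI27 measured 2.98 and 628, and both were tested only through KO 2. Of 11 interferon gamma targets, 4 were tested, 2 were higher and 0 lower (median 0.36), namely CD74 by 1.19 and ICAM1 by 0.74. In KO 1 against WT, 1 was higher and 1 lower (median 0.17), where 18.0% and 17.5% of all genes were. KO 2 against WT gave 2 higher and 0 lower (median 0.79), where 27.1% and 27.9% were. CRISPR Control against WT gave 2 higher and 1 lower (median 0.63), where 27.2% and 26.3% were. For KO 1 against CRISPR Control it was 0 higher and 1 lower (median -0.36), where 31.7% and 31.3% were. CD74, the invariant chain of class II molecules, measured 5.29 (WT), 25.8 (CRISPR Control), 7.40 (KO 1) and 110 (KO 2). CXCL9 was at 0 in every library. Of the leukocyte list, 1 gene, CD14, was tested and it was higher by 1.64.

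The genes most like the members over the 12 libraries, by Pearson r with the mean standardised profile, were OAS2 (0.996), TSC22D1 (0.995) and HLA-B (0.994) for PARP9, PARP10, PARP12, PARP14 and DTX3L. For GBP1 to GBP5 they were B2M (0.991), WLS (0.987) and SDC4 (0.985). This second profile holds 4 genes that were tested only through KO 2, so its ranking is a description. The points share their 4 lines, so the values mainly follow the line means. By Spearman rho the same genes ranked 7, 705 and 1011 for the first profile and 19, 169 and 103 for the second.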

How the data were processed

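RNA of 4 MIA PaCa-2 lines was sequenced in 12 libraries. The authors trimmed reads (cutadapt), aligned them to GRCh38 (STAR), counted them per gene and divided by DESeq2 size factors, so the deposited values are a signal of scaled counts. Strand setting and annotation release are not given in the sources used here. The values were whole multiples of 1 step in 100% of cases (tolerance 0.01 reads). The 4 columns of line means and 1 blank row were not used.

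The main test was limma 3.58.1 (R 4.3.3) with a trend on log2(value + 1), over 15987 genes with a mean of at least 10, in all 12 libraries with 4 line means and 7 comparisons, two-sided, Benjamini-Hochberg at 0.05. The count tests of edgeR 4.0.16 and DESeq2 1.42.0 and TMM factors were run on recovered reads of 11 libraries, without TIMP1 KO 2 replicate 3. The step of that library, 1.009, lies near 1, and a check of units took it for rounding. Its values were nevertheless whole multiples of the step in 100% of cases. Leaving it out was chosen after seeing the data. Scripts were tested on simulated data. Replicates differed by more than sampling noise in all 12 pairs.

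The members and gene lists were chosen with earlier results of these data known. All 10 members are named, plus, from each list, up to 4 called genes with the largest difference between deficient and competent lines and genes whose absence a sentence turns on. Up to 4 nearest neighbours per block and the 3 genes most like each profile are named. PARP4, PARP11, PARP16, ADPRH, MACROD1, PARG, DTX1, DTX3, DTX4, MX1 and MX2 in single lines and GRINA were named after their values were seen. Coordinates are of GENCODE v44 on GRCh38, in which 10 of 10 identifiers matched.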

Additional observations from a re-analysis of the deposited data

Results flagged for a closer look

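For each of the 10 genes the change from WT differed between the KO lines, as tested by limma between KO 2 and KO 1. On the log2 scale KO 2 exceeded KO 1 by 2.02 for PARP9, 1.96 for PARP10, 0.89 for PARP12, 1.60 for PARP14, 1.43 for DTX3L, 3.06 for GBP2, 2.98 for GBP3 and 3.14 for GBP4. For GBP1 and GBP5, at or under the floor of 3 reads in KO 1, the ratio of summed reads was 113 and 30.6. All 3 KO 2 libraries were above all 3 KO 1 libraries for each gene. GBP1, GBP2, GBP4 and GBP5 were tested only through their level in KO 2, so their differences are a description.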

How the results depend on the processing

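Of 1386 alternative values for 56 differences above the floor, 1355 kept their direction and side of the threshold, 23 lost the call, 5 gained one and 3 reversed. The reversals were uncalled differences between CRISPR Control and WT: GBP4 at -0.39 and GBP2 at -0.15 without WT replicate 3, and GBP4 at -0.03 without CRISPR Control replicate 2. Over all libraries left out in turn they ran from -0.39 to 0.87 for GBP4 and from -0.15 to 0.43 for GBP2. With a minimum mean of 50, 6 genes remained tested and 6 were called higher in KO 2 against WT, CRISPR Control and KO 1 and in deficient against competent lines. With an absolute log2 fold change of at least 1, CRISPR Control against WT had 0 higher and 0 lower, KO 1 had 6 higher against WT (without PARP10 and PARP12) and 6 against CRISPR Control (without GBP3), and KO 2 had 9 against KO 1 (without PARP12), and over all genes 1600 higher and 756 lower in KO 2 against WT, 661 and 651 in KO 1 against WT, 1142 and 1204 in CRISPR Control against WT, 1926 and 1457 in KO 1 and 2424 and 1495 in KO 2 against CRISPR Control, 1124 and 195 in KO 2 against KO 1, and 1445 and 879 in deficient against competent lines.

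Leaving out 1 library gave 1 to 2 higher and 1 to 4 lower in CRISPR Control against WT, 5 to 7 higher and 0 to 1 lower in KO 1 against CRISPR Control, 7 to 8 higher and 0 lower in KO 1 against WT, and 10 higher and 0 lower in each of the other comparisons. The values of 2 higher came without WT replicate 2 or 3 (GBP3) or CRISPR Control replicate 1 (GBP1, near the floor), and without the latter GBP1 was also the 1 lower gene in KO 1 against CRISPR Control. GBP4 lost its call in KO 1 against CRISPR Control under 4 of 24 alternatives. In KO 2 against WT, edgeR called 4207 genes higher and 4157 lower and DESeq2 4121 and 4125, the 10 members among the higher in each. Equal library totals moved the median of all genes by 0.105 in KO 2 against CRISPR Control.

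Replicate numbers did not pair the libraries: 2 of 18 same-numbered pairs had deviations correlated above 0.1 (-0.129 to 0.160), and 4 of 12 libraries correlated best with their own number. With the replicate block, 8, 10, 1, 7, 10, 10 and 10 genes were called higher in the 7 comparisons and 1 lower in CRISPR Control against WT. At this depth GBP1 and GBP5 cannot be compared between WT, CRISPR Control and KO 1.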
